A study of Mus musculus with 41 samples.

Results

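The proteasome subunit genes examined here are the genes whose symbol is Psma, Psmb, Psmc, Psmd, Psme, Psmf or Psmg followed by a number, without the immunoproteasome genes Psmb8, Psmb9 and Psmb10. This name rule, which used no measured value, found 45 of the 24511 genes in the deposited table. They comprised 16 genes of the core particle (8 Psma and 8 Psmb), 20 of the cap (6 Psmc and 14 Psmd, of which 3 encode assembly chaperones of the cap), 4 activators (Psme), the inhibitor gene Psmf1 and 4 chaperones of core assembly (Psmg). A gene was tested when its mean over all libraries was at least 3 on the log2 scale, and 43 of the 45 passed. The core genes Psma8, known from the testis, and Psmb11, known from the thymus, did not. Psma8 ran from 2.50 to 4.52 across the libraries and was highest in 1 tumour, IgAkMup HCC 7. Psmb11 was listed at 0 in every library. The question was whether these genes rose together in liver tumours, and whether core, cap and activators moved alike.

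The study measured polyA RNA of liver and liver tumours of male C57BL/6 mice. The values are regularized log2 expression values, called log2 levels below. A difference of 1 on this scale is a doubling, and levels were compared only within a gene because the values are not scaled per length. The healthy livers marked NC, a mark that the labels leave unexplained, came from B6, MupHe, IgAkMup and CD8kMup mice, with 3 libraries each. The HFD-fed groups were the B6 and IgAkCLM controls, described as healthy fatty liver (3 libraries each), NASH livers of MupHe and IgAkMup mice (3 each), and HCC, the liver tumours, of MupHe (4), IgAkMup (4) and CD8kMup mice (3). The labels give no ages, and the sources used here do not give the alleles behind the genotype names. CD8kMup NASH and CD8kCLM HFD control livers are not analysed here. Column names carry unexplained tags, which were Tri NC for all NC livers, SS N for B6 HFD control and IgAkMup NASH, Tri N for IgAkCLM HFD control and MupHe NASH, and SS H for all 11 tumours. The tag and the stage therefore cannot be told apart between tumours and other livers.

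The proteasome degrades proteins that carry ubiquitin chains. Its barrel-shaped core is built of alpha rings, which form the gate, and beta rings, which hold the protein-cutting sites of Psmb5, Psmb6 and Psmb7. The cap binds the ubiquitin chain, removes it, unfolds the substrate with a ring of ATPases and feeds it into the core, while activators can take the cap's place at the gate. In many cells the subunit genes are induced together, through the transcription factor Nfe2l1 and its relative Nfe2l2, when proteasome activity is short.

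Promoter sequences are shown for the 4 members with the largest differences between tumours and NASH livers, Psma3, Psma6, Psmc1 and Psmd10, and for Psmb5, whose tumour values were the most spread. They come from RefSeq (GRCm38.p6) and run from 250 bases before a start to 50 after it. For Psma6 the table lists another start, which is not printed. Capitals mark matches, on either strand, to 4 motifs. TGANNNNGC is a loose form of the core of the antioxidant response element, which the Nfe2l1 and Nfe2l2 proteins bind. A match to it need not be such an element. CCAAT is the box bound by NF-Y, and CCGGAAG is an ETS-family site. GCGCANGCG is a core of the site of nuclear respiratory factor 1, and matches of different motifs could overlap.
Psma3, chr12:70974373-70974672, plus strand: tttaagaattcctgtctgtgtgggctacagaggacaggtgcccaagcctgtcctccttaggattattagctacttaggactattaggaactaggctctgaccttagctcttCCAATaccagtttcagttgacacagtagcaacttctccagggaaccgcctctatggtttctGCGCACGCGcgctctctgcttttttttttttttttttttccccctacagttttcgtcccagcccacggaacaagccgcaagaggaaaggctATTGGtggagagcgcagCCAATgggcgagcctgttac
Psma6, chr12:55398575-55398874, plus strand: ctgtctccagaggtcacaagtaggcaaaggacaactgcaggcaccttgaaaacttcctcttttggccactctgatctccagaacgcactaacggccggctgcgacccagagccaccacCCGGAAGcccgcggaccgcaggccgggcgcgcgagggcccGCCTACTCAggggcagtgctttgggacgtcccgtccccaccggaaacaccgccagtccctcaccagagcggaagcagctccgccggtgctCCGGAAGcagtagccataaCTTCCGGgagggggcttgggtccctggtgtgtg
Psmc1, chr12:100109952-100110251, plus strand: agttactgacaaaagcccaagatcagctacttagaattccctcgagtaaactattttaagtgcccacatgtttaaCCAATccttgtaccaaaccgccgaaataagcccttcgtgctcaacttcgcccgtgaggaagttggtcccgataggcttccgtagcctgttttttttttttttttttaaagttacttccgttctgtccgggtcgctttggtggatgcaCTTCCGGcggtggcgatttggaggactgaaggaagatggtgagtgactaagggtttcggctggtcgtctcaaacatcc
Psmd10, chrX:140956662-140956961, minus strand: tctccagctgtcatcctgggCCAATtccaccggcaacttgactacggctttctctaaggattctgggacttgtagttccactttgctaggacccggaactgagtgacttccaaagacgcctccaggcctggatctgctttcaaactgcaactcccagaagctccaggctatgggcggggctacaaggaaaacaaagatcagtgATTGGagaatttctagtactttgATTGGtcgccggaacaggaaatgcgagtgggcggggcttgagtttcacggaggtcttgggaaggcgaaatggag
Psmb5, chr14:54617946-54618245, minus strand: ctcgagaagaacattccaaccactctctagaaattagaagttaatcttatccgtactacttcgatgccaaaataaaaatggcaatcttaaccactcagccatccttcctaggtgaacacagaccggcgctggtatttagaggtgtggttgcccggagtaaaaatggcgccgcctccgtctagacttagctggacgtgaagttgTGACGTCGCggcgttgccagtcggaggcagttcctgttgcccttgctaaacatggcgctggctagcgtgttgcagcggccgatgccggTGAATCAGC
The table held 40 windows of 37 members. TGANNNNGC stood in 57.5% of them, against 41.3% of all 32851 windows of the same length, and CCAAT in 32.5% against 37.4%. CCGGAAG stood in 37.5% against 8.86%, and GCGCANGCG in 17.5% against 6.25%. Psma3, which fell in tumours, and Psmd10, which rose, each have 3 CCAAT matches in the windows shown. These matches are letters in a window and were not tested for binding.

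The 43 tested members were compared between healthy livers of different genotypes. No member differed between MupHe and B6 NC livers, between IgAkMup and MupHe NC livers, or between CD8kMup and MupHe NC livers, by limma at an adjusted p under 0.05. At an unadjusted p under 0.05 there were 2, 1 and 1 of 43 members and 648, 437 and 367 of all 12337 genes tested. Of all genes 0.0486%, 0.0162% and 0.0162% passed the adjusted threshold. The 12 NC libraries therefore serve as a common base in the plots. The liver label was checked with 6 hepatocyte marker genes, all expressed. Their summed log2 level was 19.39 to 19.95 in NC livers, 19.54 to 19.91 in NASH livers and 18.64 to 20.39 in tumours. Summed leukocyte markers were 10.34 to 10.70 in NASH livers and 10.59 to 11.47 in tumours, and dividing-cell markers 7.10 to 7.95 and 7.89 to 9.51. In such whole-tissue samples, fewer cells of a type and less RNA per cell cannot be told apart, and the part of these markers in the results below was not tested.

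The proteasome genes did not rise together in tumours relative to NASH livers. Over the MupHe and IgAkMup tumours (n = 8) against the NASH livers of the same genotypes (n = 6), 17 of 43 members fell and 1 rose. Among all genes tested 25.5% rose and 22.9% fell, so the share of falling members was above the background and the share of rising members below it. The median difference of the members was -0.14, against 0.01 for all genes. With quantile normalization, which forces every library to the same distribution, 4 rose and 9 fell, and 21 of 43 differences were positive instead of 8. Without IgAkMup NASH 2, MupHe HCC 2 or MupHe HCC 4, 2 members rose.

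**Figure D1:**
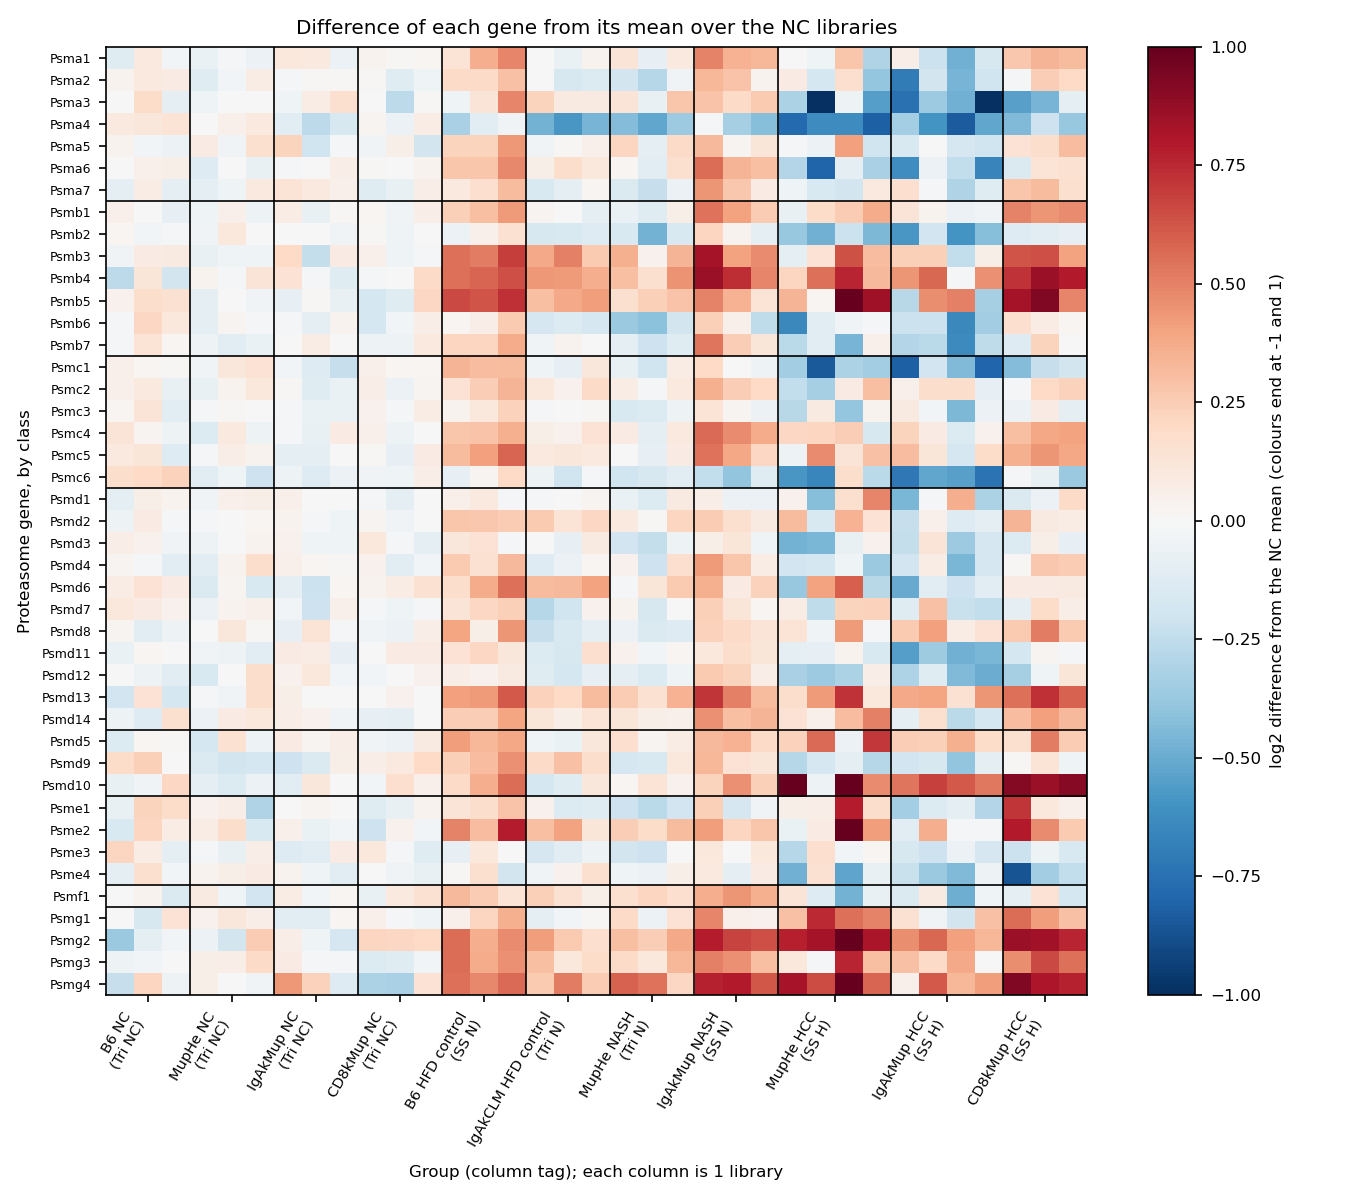
Log2 difference from the mean of the 12 NC livers for the 43 tested members (rows, ordered by role) in each of the 35 libraries (columns, by group). Colours run from -1 to 1; the columns of B6 HFD control and IgAkMup NASH are mostly positive, IgAkCLM HFD control and MupHe NASH are near 0, and tumour columns differ from one library to the next.

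Of the 7 tested genes of the alpha ring 5 fell, none had a positive difference, and the median difference was -0.29. With the median of each gene's chromosome subtracted, an alternative chosen after the data were seen, the alpha median was -0.17 and that of the 7 beta genes -0.18, with 4 falls in each. Psma3, a subunit of that ring, had log2 levels of 7.87, 7.67 and 8.02 in MupHe NASH livers and 8.03, 7.94 and 8.01 in IgAkMup NASH livers. In tumours it stood at 7.43, 6.70, 7.69 and 7.20 (MupHe) and at 7.00, 7.38, 7.27 and 6.67 (IgAkMup). All tumours but MupHe HCC 4 lay below every NASH liver, and the difference was -0.76 ± 0.12 (SE, limma adjusted p = 1.09e-05). CD8kMup tumours, which enter no comparison with NASH livers, stood at 7.20, 7.28 and 7.66, NC livers at 7.49 to 7.93 (median 7.75) and HFD controls at 7.71 to 8.24 (median 7.86). Psma6, another alpha subunit, had levels of 9.76, 9.63 and 9.90 in MupHe NASH livers and 10.30, 10.08 and 10.04 in IgAkMup NASH livers. Its tumour levels were 9.44, 8.94, 9.65 and 9.41 (MupHe) and 9.11, 9.68, 9.49 and 9.08 (IgAkMup). The difference was -0.60 ± 0.09 (adjusted p = 6.41e-06), and MupHe HCC 4 and IgAkMup HCC 7 overlapped the lowest NASH liver. CD8kMup tumours had 9.60, 9.87 and 9.89, NC livers 9.61 to 9.80 (median 9.74) and HFD controls 9.80 to 10.22 (median 9.96).

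Psma1, also of the alpha ring, stood at 9.72, 9.52 and 9.69 in MupHe and 10.09, 9.94 and 9.92 in IgAkMup NASH livers. Tumours had 9.59, 9.55, 9.87 and 9.29 (MupHe) and 9.66, 9.38, 9.11 and 9.44 (IgAkMup). The MupHe tumours overlapped their NASH livers and the IgAkMup tumours lay below theirs, for a joint difference of -0.33 ± 0.08 (adjusted p = 0.00131). In CD8kMup tumours it was 9.87, 9.94 and 9.91, above the 9.47 to 9.70 of NC livers (median 9.59), with HFD controls at 9.53 to 10.09 (median 9.68). Psma4 fell by 0.29 and Psma2 by 0.26.

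Of the 7 tested beta genes 3 fell, Psmb7, Psmb2 and Psmb3, and the median difference was -0.13, or 0.06 with quantile normalization. The catalytic subunits parted. Psmb7, which carries the trypsin-like site, had levels of 9.83, 9.70 and 9.79 in MupHe NASH livers and 10.45, 10.16 and 10.03 in IgAkMup NASH livers. In tumours they were 9.65, 9.81, 9.45 and 9.97 (MupHe) and 9.62, 9.65, 9.28 and 9.66 (IgAkMup). Psmb7 fell by 0.36 ± 0.08 (adjusted p = 0.000445), with every IgAkMup tumour below every NASH liver and the MupHe tumours mixed among theirs. The CD8kMup levels of 9.79, 10.13 and 9.92 spanned the 9.81 to 10.05 of NC livers (median 9.91), and HFD controls ran from 9.88 to 10.29 (median 10.04).

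Psmb5, which carries the chymotrypsin-like site, did not pass the test (0.09 ± 0.15, adjusted p = 0.647). Its NASH levels were 8.64, 8.71 and 8.77 (MupHe) and 8.97, 8.82 and 8.62 (IgAkMup). Its tumours spanned 8.82, 8.50, 9.84 and 9.33 (MupHe), 8.20, 8.94, 8.98 and 8.14 (IgAkMup) and 9.31, 9.40 and 8.97 (CD8kMup), against 8.30 to 8.68 in NC livers and 8.78 to 9.21 in HFD controls. Tumours therefore stood both above and below all NASH livers. Psmb6, which carries the caspase-like site, had NASH levels of 9.79, 9.75 and 9.98 (MupHe) and 10.40, 10.22 and 9.91 (IgAkMup). Its tumour levels were 9.52, 10.05, 10.13 and 10.14 (MupHe) and 9.95, 9.95, 9.51 and 9.81 (IgAkMup), and the difference of -0.12 ± 0.09 did not pass (adjusted p = 0.266). Named pseudogenes exist for Psmb5, Psmb6 and Psmb7, and the sources do not say how reads shared with them were counted.

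In the cap 7 of 20 genes fell and 1 rose, with a median difference of -0.14. With quantile normalization 4 fell and 4 rose and the median was 0.01, so the cap's direction depends on the scaling. Among the 6 ATPases of the unfolding ring 3 fell, Psmc1, Psmc6 and Psmc4, and none had a positive difference. Psmc1 had levels of 9.51, 9.39 and 9.66 in MupHe and 9.79, 9.58 and 9.54 in IgAkMup NASH livers. Levels in tumours were 9.24, 8.75, 9.27 and 9.24 (MupHe) and 8.77, 9.39, 9.15 and 8.79 (IgAkMup). All but IgAkMup HCC 7 lay below every NASH liver, and Psmc1 fell by 0.50 ± 0.09 (adjusted p = 3.61e-05). CD8kMup tumours stood at 9.15, 9.35 and 9.40, NC livers at 9.36 to 9.73 (median 9.61) and HFD controls at 9.50 to 9.93 (median 9.80).

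Of the 11 non-ATPase subunits 3 fell, Psmd11, Psmd12 and Psmd4. Psmd11, a scaffold subunit of the lid, had levels of 9.26, 9.18 and 9.23 (MupHe) and 9.32, 9.39 and 9.34 (IgAkMup) in NASH livers. In tumours it stood at 9.13, 9.13, 9.25 and 9.06 (MupHe) and 8.66, 8.86, 8.73 and 8.75 (IgAkMup). The IgAkMup tumours formed a low group of their own, and the joint difference was -0.34 ± 0.06 (adjusted p = 1.20e-05). CD8kMup tumours, at 9.04, 9.24 and 9.20, reached into the 9.11 to 9.30 of NC livers (median 9.22), and HFD controls ran from 9.06 to 9.42 (median 9.34). Psmd12, also of the lid, had NASH levels of 9.53, 9.48 and 9.58 (MupHe) and 9.88, 9.85 and 9.69 (IgAkMup). Tumours had levels of 9.30, 9.26, 9.30 and 9.69 (MupHe) and 9.31, 9.50, 9.18 and 9.12 (IgAkMup). Psmd12 fell by 0.33 ± 0.08, and MupHe HCC 7 and IgAkMup HCC 7 stood above the lowest NASH liver. Its levels were 9.29, 9.57 and 9.74 in CD8kMup tumours, 9.47 to 9.80 in NC livers (median 9.62) and 9.45 to 9.71 in HFD controls (median 9.60).

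The ubiquitin receptor gene Psmd4 fell and Psmd2, the large base subunit that docks ubiquitin-like domains, did not pass the test. Psmd4 had NASH levels of 9.66, 9.41 and 9.78 (MupHe) and 10.05, 9.90 and 9.70 (IgAkMup), and tumour levels of 9.43, 9.44, 9.57 and 9.25 (MupHe) and 9.43, 9.69, 9.17 and 9.45 (IgAkMup). The MupHe groups overlapped, the IgAkMup groups did not, and the difference was -0.32 ± 0.08 (adjusted p = 0.00133). The CD8kMup tumours had 9.63, 9.89 and 9.87, NC livers 9.51 to 9.79 (median 9.64) and HFD controls 9.49 to 9.95 (median 9.71). Psmd2 had NASH levels of 10.62, 10.53 and 10.74 (MupHe) and 10.77, 10.68 and 10.61 (IgAkMup), and tumour levels of 10.84, 10.37, 10.87 and 10.67 (MupHe) and 10.29, 10.57, 10.39 and 10.42 (IgAkMup). Its difference of -0.11 did not pass and turned to 0.15 with quantile normalization.

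Psmd14, the deubiquitinase that removes the chain, did not pass in the joint comparison (-0.14 ± 0.07, adjusted p = 0.0843). Its NASH levels were 9.05, 8.99 and 8.98 (MupHe) and 9.39, 9.23 and 9.27 (IgAkMup). Its tumour levels were 9.08, 8.98, 9.23 and 9.43 (MupHe) and 8.84, 9.09, 8.66 and 8.75 (IgAkMup). The IgAkMup tumours lay below their NASH livers and the MupHe tumours reached above theirs.

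The 3 chaperones of cap assembly went different ways. Psmd10, also known as gankyrin and described as an oncoprotein of liver tumours, was the 1 member that rose. Its NASH levels were 6.58, 6.70 and 6.61 (MupHe) and 6.79, 7.02 and 6.80 (IgAkMup), against 6.43 to 6.77 in NC livers and 6.39 to 7.12 in HFD controls. Its tumour levels were 7.87, 6.52, 7.89 and 7.04 (MupHe), 7.10, 7.25, 7.18 and 7.09 (IgAkMup) and 7.48, 7.43 and 7.48 (CD8kMup). All tumours but MupHe HCC 3 exceeded every NASH and NC liver. B6 HFD control 3, at 7.12, stood above MupHe HCC 7, IgAkMup HCC 5 and IgAkMup HCC 9 as well as MupHe HCC 3. The difference from NASH was 0.49 ± 0.14 (adjusted p = 0.00367). Psmd9 fell by 0.27, from 8.07, 8.08 and 8.34 (MupHe) and 8.57, 8.38 and 8.36 (IgAkMup) to 7.95, 8.07, 8.14 and 7.95 (MupHe) and 8.05, 8.07, 7.84 and 8.13 (IgAkMup). Psmd5 had a difference of 0.12 that did not pass. Its NASH levels were 8.61, 8.46 and 8.51 (MupHe) and 8.76, 8.78 and 8.63 (IgAkMup), and its tumour levels 8.38 to 9.14 (MupHe) and 8.68, 8.67, 8.79 and 8.62 (IgAkMup).

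Of the 4 activators, only Psme4, a large single-chain activator, fell in this comparison (-0.26 ± 0.10, adjusted p = 0.0315). Its NASH levels were 10.36, 10.35 and 10.46 (MupHe) and 10.50, 10.31 and 10.49 (IgAkMup), and its tumour levels 9.92, 10.56, 9.88 and 10.33 (MupHe) and 10.19, 10.03, 9.96 and 10.35 (IgAkMup). Psme1 and Psme2 encode the alternating chains of the interferon-inducible activator and lie 5912 bases apart on chromosome 14. Psme1 had NASH levels of 9.11, 9.05 and 9.13 (MupHe) and 9.56, 9.15 and 9.28 (IgAkMup), and tumour levels of 9.37, 9.39, 10.10 and 9.49 (MupHe) and 8.98, 9.18, 9.22 and 9.02 (IgAkMup). Every MupHe tumour was above its NASH livers and the IgAkMup tumours were not, so the joint difference of 0.13 ± 0.11 did not pass (adjusted p = 0.313). Psme2 had NASH levels of 7.30, 7.24 and 7.37 (MupHe) and 7.48, 7.27 and 7.33 (IgAkMup), and tumour levels of 6.99, 7.14, 8.30 and 7.48 (MupHe) and 6.95, 7.42, 7.05 and 7.05 (IgAkMup). Psme3, the nuclear activator, stood at 9.04, 9.02 and 9.22 (MupHe) and 9.33, 9.23 and 9.33 (IgAkMup) in NASH livers, and at 8.94, 9.40, 9.20 and 9.25 (MupHe) and 9.07, 9.02, 9.17 and 9.06 (IgAkMup) in tumours. Neither Psme2 nor Psme3 passed.

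Psmf1 is the gene of a core inhibitor. Its NASH levels were 8.17, 8.23 and 8.18 (MupHe) and 8.38, 8.46 and 8.37 (IgAkMup). In tumours it stood at 8.14, 7.89, 7.54 and 7.94 (MupHe) and 7.87, 8.10, 7.52 and 7.97 (IgAkMup). All 8 tumours lay below all 6 NASH livers, and Psmf1 fell by 0.43 ± 0.08 (adjusted p = 0.000149). The tumour levels other than MupHe HCC 4 and IgAkMup HCC 8 lay within the 7.82 to 8.16 of NC livers (median 8.02). CD8kMup tumours, at 7.93, 8.16 and 7.84, did so too, and HFD controls ran from 8.08 to 8.34 (median 8.21).

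The 4 chaperones that assemble the core did not pass the test between tumours and NASH livers (median difference 0.07), but stood above healthy livers in many libraries. Psmg2, which pairs with Psmg1, ran from 6.32 to 6.95 in NC livers. It stood at 7.25, 7.05 and 7.17 in B6 HFD controls, 6.99, 6.94 and 7.07 in MupHe NASH and 7.48, 7.37 and 7.34 in IgAkMup NASH livers. Tumour levels were 7.47, 7.52, 7.89 and 7.51 (MupHe), 7.15, 7.27, 7.10 and 7.02 (IgAkMup) and 7.56, 7.53 and 7.46 (CD8kMup). All 11 tumours were above all NC livers. Psmg4, which pairs with Psmg3, ran from 4.97 to 5.73 in NC livers and stood at 6.12, 5.95, 6.39 and 5.88 (MupHe), 5.35, 5.91, 5.63 and 5.71 (IgAkMup) and 6.22, 6.11 and 6.07 (CD8kMup) in tumours. MupHe and CD8kMup tumours were above every NC liver for Psmg4, and 3 of the 4 IgAkMup tumours were not. Psmg1 ran from 7.05 to 7.35 in NC livers and from 7.02 to 7.95 in tumours, and Psmg3 from 6.44 to 6.77 and from 6.56 to 7.34.

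In the joint comparison the gap between core and cap depended on the scaling. The core median was -0.25 (8 of 14 fell) and the cap median -0.14 (7 of 20 fell, 1 rose), a gap of -0.11 that is given as a description. With quantile normalization the core median was -0.16 (4 of 14 fell) and the cap median 0.01. With chromosome medians subtracted they were -0.18 (8 of 14 fell) and -0.15 (10 of 20 fell, 1 rose). The activator median was -0.05. As medians over genes in each library, relative to the NC mean, core values of tumours ran from -0.38 to 0.23, cap values from -0.22 to 0.16, activator values from -0.19 to 0.38 and core chaperone values from 0.22 to 0.93. The median over all tested genes stayed between -0.01 and 0.01 in the same tumours. Core chaperone values were also above 0 in all SS N (0.36 to 0.64) and Tri N (0.17 to 0.28) libraries.

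**Figure D2:**
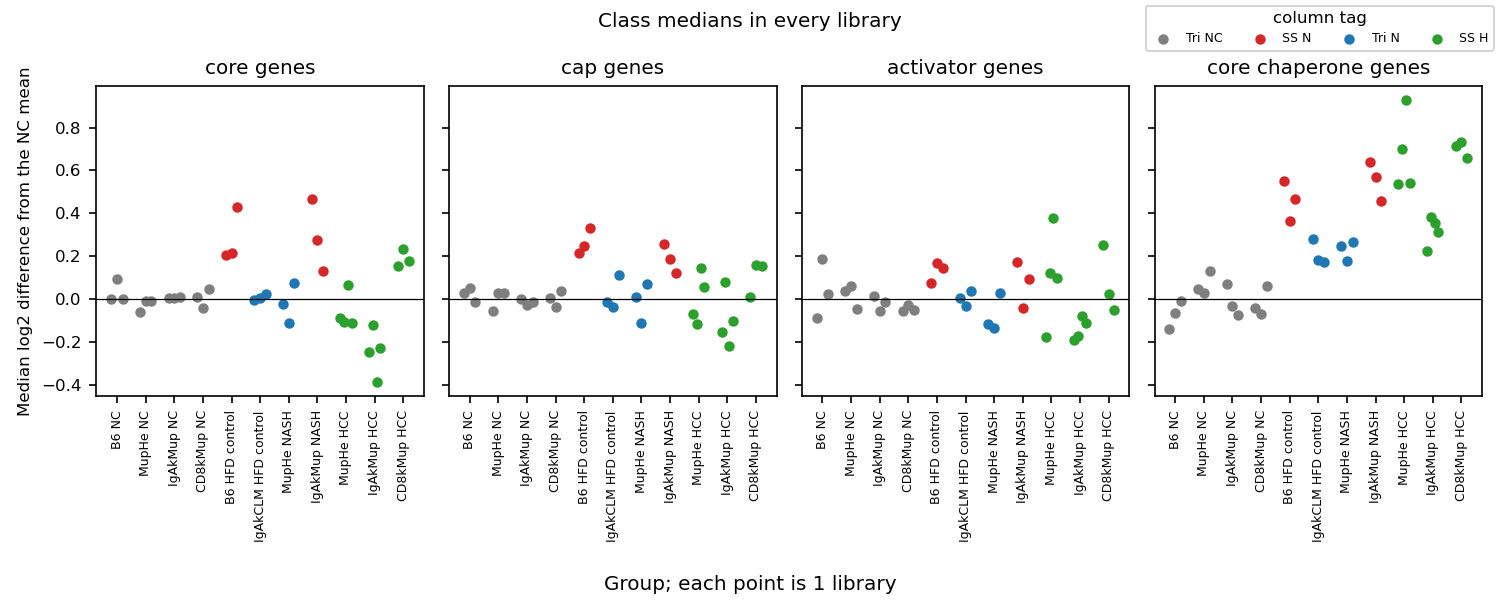
Median log2 difference from the NC mean over the genes of a class, 1 point per library, by group, in 4 panels (core, cap, activators, core chaperones), coloured by the column tag. Core chaperones are above 0 in every tumour (0.22 to 0.93), and also in every SS N (0.36 to 0.64) and Tri N (0.17 to 0.28) library. For this class IgAkMup tumours (0.22 to 0.38) lie below IgAkMup NASH livers (0.46 to 0.64). Core medians of tumours fall on both sides of 0 (-0.38 to 0.23).

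More falls were called against IgAkMup than against MupHe NASH livers. The median over members, relative to the NC mean, was 0.12 to 0.33 in IgAkMup and -0.09 to 0.08 in MupHe NASH livers. In IgAkMup tumours (n = 4) against IgAkMup NASH livers (n = 3), 24 of 43 members fell and limma called none higher, while 20.7% of all genes fell and 23.2% rose. At an unadjusted p under 0.05 there were 29 of 43 members in either direction and 6322 of all 12337 genes. Differences were positive for 2 of 43 members and 6570 of 12337 genes. The core lost 12 of 14 genes to this call (median -0.44), the cap 10 of 20 (-0.27), the core chaperones 1 of 4 (Psmg4), and none of the 4 activators passed (median -0.24). The cap median was 0.01 with quantile normalization and the core median -0.33. The largest falls were Psma3 (-0.91 ± 0.17), Psma6 (-0.80 ± 0.13), Psmb7 (-0.66 ± 0.11) and Psmc1 (-0.61 ± 0.13). Psmd10 stood above the NASH range in all 4 tumours without passing (0.28 ± 0.19, adjusted p = 0.235). Without IgAkMup NASH 2, 15 members fell, and against MupHe in place of IgAkMup NASH livers, a choice made after the data were seen, 6 fell and 2 rose. MupHe tumours against IgAkMup NASH livers had 15 falls and 1 rise. The shares of all genes in these alternative fits are not given here.

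In MupHe tumours (n = 4) against MupHe NASH livers (n = 3), 4 members rose and 5 fell, against 16% and 14.7% of all genes. The members that rose were Psmd10 (0.70 ± 0.19), Psmg2 (0.60 ± 0.11), Psme1 (0.49 ± 0.15) and Psmg1 (0.43 ± 0.12). Psma3 (-0.60 ± 0.17), Psma6 (-0.40 ± 0.13), Psmc1 (-0.39 ± 0.13), Psmf1 (-0.32 ± 0.12) and Psma4 (-0.27 ± 0.10) fell. The median difference was 0.08 for all members, -0.03 for the core and 0.39 for the core chaperones. The count of falls was 2 without MupHe NASH 1 or MupHe HCC 3, 3 without MupHe NASH 2 and 0 without MupHe NASH 6, and Psme1 lost its call without MupHe HCC 4. Quantile normalization gave 6 rises and 4 falls.

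The change from NASH to tumour differed between the genotypes for 12 members, each more negative in IgAkMup, where 4.82% of all genes differed upward and 5.2% downward (limma interaction test). They were the core genes Psma1, Psma2, Psmb1 and Psmb7, the cap genes Psmc4, Psmc5, Psmd11 and Psmd14, the activator Psme1 and the core chaperones Psmg1, Psmg2 and Psmg4. The size ran from -0.47 (Psmc5) to -0.86 ± 0.15 (Psmg2, adjusted p = 0.00122). The count was 5 without IgAkMup NASH 2 and 7 without MupHe NASH 2 or MupHe HCC 4. With the 4 groups fitted alone no member passed. The NASH livers of the genotypes carry different tags, SS N and Tri N, so that genotype and tag cannot be told apart here.

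**Figure D3:**
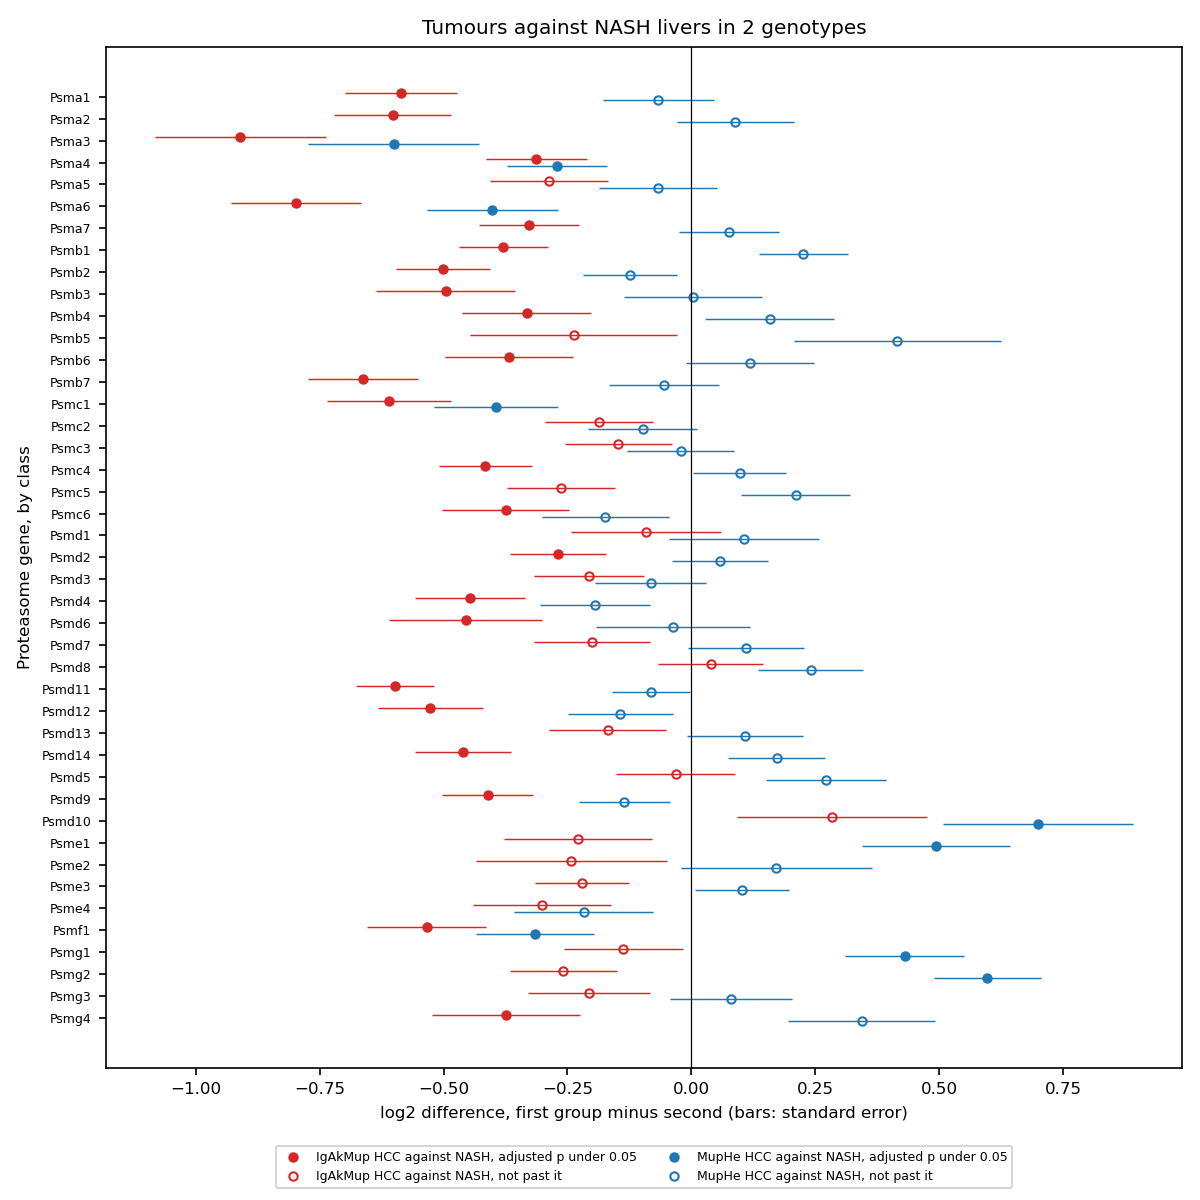
Log2 difference of tumours from NASH livers of the same genotype for the 43 tested members, grouped by role, with standard errors, for IgAkMup (red) and MupHe (blue). Filled points passed an adjusted p of 0.05 (24 IgAkMup and 9 MupHe points); the IgAkMup points lie left of the MupHe points for every member, except that 8 of 43 lie to the right with quantile normalization.

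The NASH livers differed between the genotypes in the opposite sense. In IgAkMup against MupHe NASH livers 42 of 43 members had a positive difference, with a median of 0.23. Among all genes 6450 of 12337 were positive, with a median of 0.01. Psmb1 (0.44 ± 0.10), Psmb7, Psmc4 and Psma7 passed the test. Of all genes 0.567% passed upward and 2.45% downward. In 19 members the unadjusted p was under 0.05, as it was in 1909 of all 12337 genes. No member passed without MupHe NASH 2 or IgAkMup NASH 2, 1 without IgAkMup NASH 3, 2 without MupHe NASH 1 or MupHe NASH 6, and 7 without IgAkMup NASH 6.

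The same tags also separate the HFD controls. In B6 (SS N) against IgAkCLM (Tri N) HFD controls 42 of 43 members were again positive, with a median of 0.23. Among all genes 6514 of 12337 were positive, with a median of 0.02. Psmd8 (0.45 ± 0.11) and Psmb1 (0.34 ± 0.10) passed, where 1.44% of all genes passed upward and 3.72% downward. At an unadjusted p under 0.05 there were 16 members and 2615 of all 12337 genes. Leaving out any B6 library, or IgAkCLM library 1 or 2, left 1 member or none. These groups share no library with the NASH groups. Relative to the NC mean, the median over members was 0.12 to 0.36 in the 6 SS N libraries and -0.09 to 0.09 in the 6 Tri N libraries, with no overlap. Genotype and tag cannot be told apart in either pair.

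No member passed between NASH and HFD control livers (1.32% of all genes), nor between MupHe NASH and IgAkCLM HFD control livers (0.559%) or between IgAkMup NASH and B6 HFD control livers (0.251%), by limma. The members with an unadjusted p under 0.05 were 1, 1 and 2, against 1504, 1263 and 931 of all 12337 genes. The second and the third of these comparisons lie within a tag.

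Against NC livers of the same genotype, members rose in both SS N groups. In B6 HFD controls 12 members rose and none fell, against 9.59% and 11% of all genes. The leading ones were Psmb4 (0.70), Psmg2 (0.63), Psmd13 (0.56) and Psmg4 (0.55), and the median over members was 0.27. The count was 7 without B6 NC 1 and 4 without B6 HFD control 3. In IgAkMup NASH livers 11 rose and none fell, against 5.53% and 7.39%, led by Psmg2 (0.75), Psmb4 (0.70), Psmb3 (0.55) and Psmg4 (0.55). That count was 3 without IgAkMup NASH 2 and 7 without IgAkMup NC 1, IgAkMup NC 2 or IgAkMup NASH 3. In MupHe NASH livers 1 member passed, Psma4, which fell by 0.49 ± 0.11, against 1.93% of all genes. None passed without MupHe NC 2, MupHe NC 3 or MupHe NASH 2. NC livers carry the tag Tri NC, so the tag differs here too.

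Tumours were also compared with NC livers of their genotype, and differences between these comparisons were not tested. Tumours came from HFD-fed mice and carry another tag than NC livers, so feeding, stage and tag cannot be told apart here. Psmb4, Psmg2, Psmd13 and Psmg4, named below, also rose in B6 HFD controls without tumours, as given above. CD8kMup tumours (n = 3) had 16 of 43 members higher and 2 lower than CD8kMup NC livers (n = 3), against 16.8% and 17% of all genes. All 4 core chaperones rose, Psmg4 by 1.00 ± 0.16, Psmg3 by 0.65, Psmg2 by 0.62 and Psmg1 by 0.43. In the core 5 of 14 rose, Psmb5 (0.78 ± 0.22), Psmb4 (0.73 ± 0.14), Psmb3 (0.56), Psmb1 (0.45) and Psma7 (0.30). In the cap 6 of 20 rose, among them Psmd10 (0.83 ± 0.20) and Psmd13 (0.61 ± 0.13). Psme2 rose by 0.58 ± 0.21 and Psme4 fell by 0.45 ± 0.15, as did Psma4 by 0.36. Quantile normalization gave 19 rises, and no falls. Without CD8kMup HCC 3 no member fell, and without CD8kMup NC 1 or 2 there was 1 fall.

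MupHe tumours against MupHe NC livers had 8 rises and 4 falls among the 43 members (20.6% and 19.5% of all genes), so that the share of rises was near the background and that of falls below it. Psmg2 (0.90), Psmd10 (0.86), Psmg4 (0.78), Psmb5 (0.69), Psmg1 (0.45), Psmb4 (0.41), Psmd5 (0.38) and Psmd13 (0.32) rose, and the calls of Psmb4 and Psmd13 were lost with the compared groups fitted alone. Psma4 (-0.76), Psmc1 (-0.54), Psma3 (-0.48) and Psmb2 (-0.41) fell. Without MupHe HCC 4 there were 5 rises and 7 falls, and without MupHe HCC 2 there were 13 rises. Median centring gave 7 and 6.

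IgAkMup tumours against IgAkMup NC livers had 4 rises and 11 falls among the 43 members (22.9% and 22.1% of all genes), with the share of falls near the background and that of rises below it. Psmd10 (0.59), Psmg2 (0.49), Psmb4 (0.36) and Psmd13 (0.32) rose. The calls of Psmb4 and Psmd13 were lost with median centring or with the compared groups fitted alone. Psma3 (-0.73), Psmc6 (-0.55), Psmd11 (-0.49), Psmb2 (-0.44), Psmc1 (-0.43) and Psma6 (-0.41) led the falls. Quantile normalization turned the balance to 11 rises and 5 falls, and the rises were 2 without IgAkMup NC 2, IgAkMup NC 3, or IgAkMup HCC 5, 7 or 9.

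Between tumours, which share the tag SS H, IgAkMup against MupHe had 6 members lower, where 4.12% of all genes were higher and 6.01% lower. They were Psme1 (-0.49), Psmg1 (-0.46), Psmg2 (-0.46), Psmg4 (-0.44), Psmd11 (-0.39) and Psmd14 (-0.34). The count was 11 without MupHe HCC 3, and no member passed with those groups fitted alone. Between CD8kMup and MupHe tumours no member passed by limma (1.32% of all genes). At an unadjusted p under 0.05 there were 15 of 43 members and 2004 of all 12337 genes. Differences were positive for 35 of 43 members and 5875 of 12337 genes. Without MupHe HCC 4, 12 members passed. The shares of all genes in fits that leave out a library are not given here, so such counts are a description only.

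Tumours of 1 genotype differed among themselves more than other livers did. The median SD within groups was 0.21 for the members in tumours and 0.10 in other livers, and it was larger in tumours for 42 of 43 members, as it was for 11184 of all 12337 genes (0.27 and 0.15). Libraries MupHe HCC 3, IgAkMup HCC 5 and IgAkMup HCC 9 were chosen as a set with earlier results of these data known. They were the 3 lowest of the 11 tumours for 6 of 43 members, Psma3, Psma6, Psmb5, Psmc1, Psmc6 and Psmd1. The same held for 823 of all 12337 genes (6.67%).

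These 6 genes lie on chromosomes 12, 14 and 1, which led to a comparison of each member with its chromosome, chosen after the data were seen. For each library, the median difference from the NC mean was taken over the tested genes of a chromosome other than the members. In the 24 livers without tumours this median lay between -0.22 and 0.13 for all 20 chromosomes. Both ends came from chromosome 14, and the other chromosomes stayed between -0.07 and 0.07. Of the 220 tumour values 53 lay outside the range of all chromosomes together, which is wide for chromosomes other than 14. DNA copy number was not measured in the data used here, and its part was not tested.

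Chromosome 12 carries Psma3 (70974621 to 70996347), Psma6 (55384222 to 55418454) and Psmc1 (100110154 to 100123405, all GRCm38, plus strand), the 3 members that fell most. The median of its 408 other genes was -0.21, -0.46, -0.29 and -0.24 in MupHe tumours, -0.33, -0.03, -0.07 and -0.33 in IgAkMup tumours and -0.37, -0.22 and -0.20 in CD8kMup tumours. In every other liver it lay between -0.02 and 0.03. It was lowest in MupHe HCC 3, which also had the lowest Psma6 and Psmc1. The next lowest was CD8kMup HCC 3, where Psma6 (9.60) and Psmc1 (9.15) were not among the 3 lowest of the tumours, and the lowest Psma3 was that of IgAkMup HCC 9.

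Chromosome 14 carries Psmb5, Psmc6, Psmd6, Psme1 and Psme2. The median of its 399 other genes was 0.37 in MupHe HCC 4, the library with the highest Psmb5, Psme1 and Psme2, and from -0.36 to 0.03 in the other tumours. It was -0.35 and -0.36 in IgAkMup HCC 5 and IgAkMup HCC 9, the libraries with the lowest Psmb5 and Psme1. It was also low, at -0.29 and -0.32, in MupHe HCC 2 and MupHe HCC 3, where Psme1 (9.37 and 9.39) lay above all MupHe NASH livers. In livers without tumours this median ran from -0.22 to 0.13. Psmd10 is the 1 member on the X chromosome. The median of 360 other genes there was 0.24 and 0.25 in MupHe HCC 2 and MupHe HCC 4, the libraries with the highest Psmd10, and -0.38 in MupHe HCC 3, the library with the lowest.

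**Figure D4:**
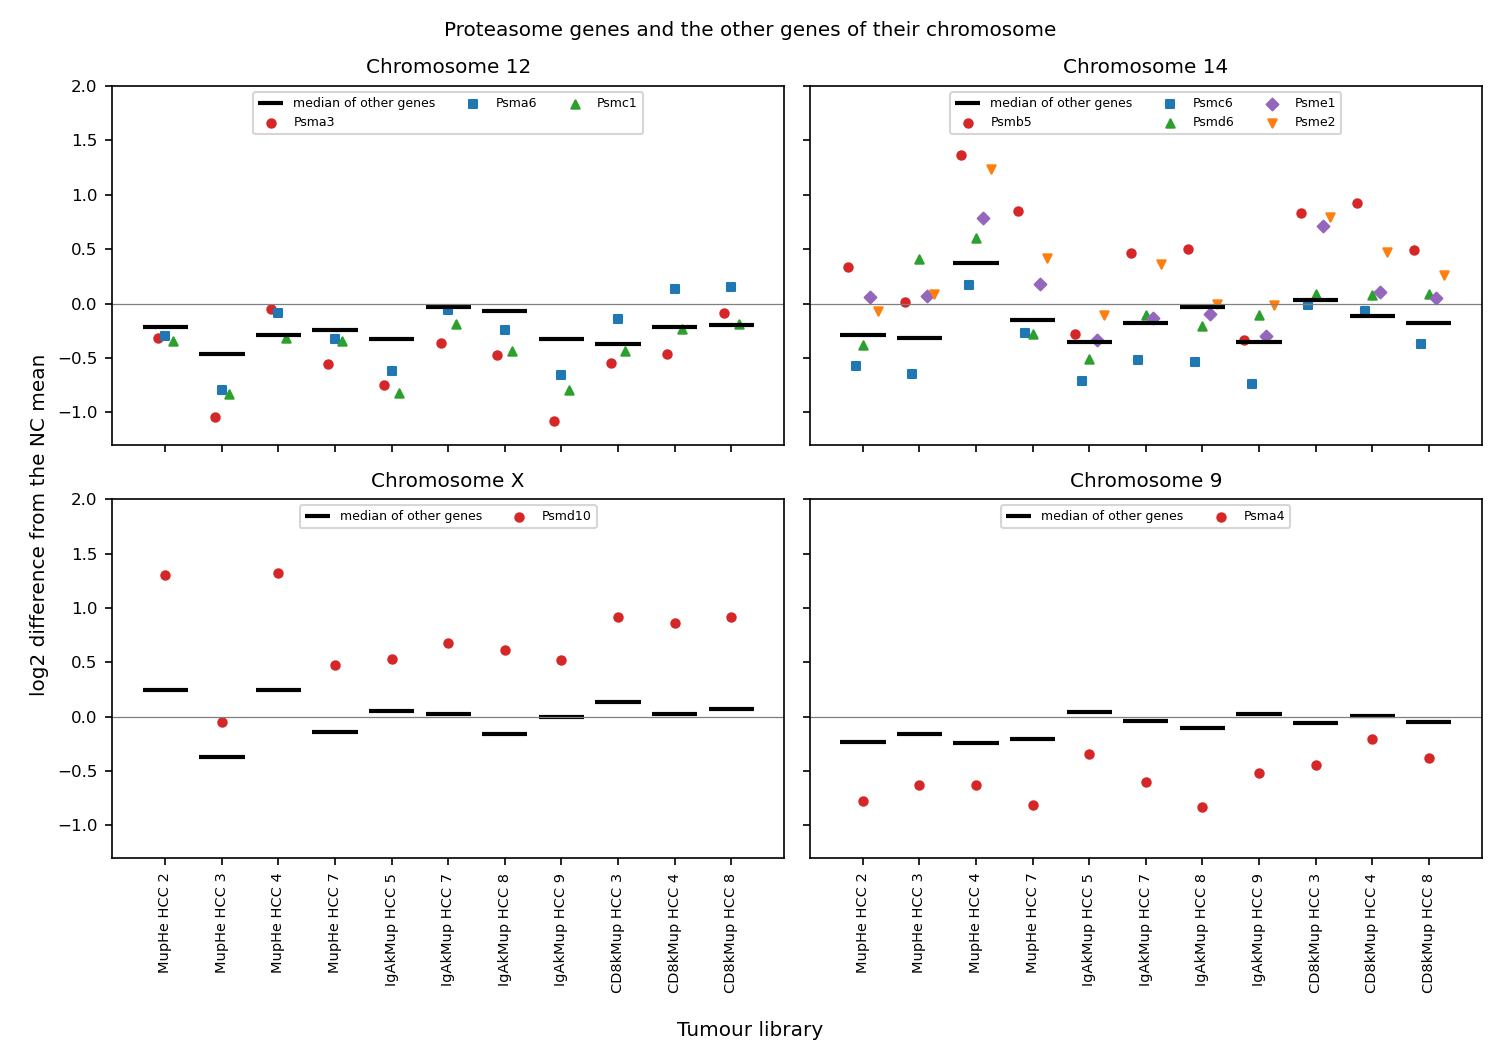
Log2 difference from the NC mean in the 11 tumours for the members on chromosomes 12, 14, X and 9 (points), with the median of the other tested genes of that chromosome (black bar). On chromosome 14 the bar is at 0.37 in MupHe HCC 4, where Psmb5 is highest, and at -0.36 in IgAkMup HCC 9, where it is lowest, while members away from the bar include Psmd6 in MupHe HCC 3 (level 9.31, bar at -0.32) and Psmd10 in MupHe HCC 7 (level 7.04, bar at -0.14).

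With each library's chromosome medians subtracted, the within-group SD in tumours became smaller for 38 of 43 members (88.4%), and its median went from 0.21 to 0.15. Among all tested genes with a chromosome it became smaller for 66.6%. For Psmc6 it went from 0.26 to 0.10, for Psme1 from 0.29 to 0.14 and for Psmc1 from 0.25 to 0.13. In livers without tumours it became smaller for 19 of 43 members.

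The falls of chromosome 12 genes became smaller on this scale. Over both genotypes Psma3 fell by 0.51 ± 0.10, Psma6 by 0.35 ± 0.07 and Psmc1 by 0.25 ± 0.06, and all still passed the test (adjusted p = 0.0001675, 0.0001174 and 0.001535). In MupHe tumours alone the differences were -0.30, -0.10 and -0.09 and no longer passed (adjusted p = 0.120, 0.469 and 0.470). In IgAkMup tumours they were -0.72, -0.60 and -0.42 and passed. Psmd10 (0.51 ± 0.09) and Psmf1 (-0.40 ± 0.07) moved little, and Psme1 passed as higher (0.23 ± 0.07, adjusted p = 0.006385). The counts over all members were 2 rises and 20 falls for both genotypes, 27 falls for IgAkMup, and 6 rises and 1 fall for MupHe. The shares of all genes that passed on this scale are not given here, so these counts are a description only.

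The immunoproteasome genes, which replace the catalytic subunits in cells exposed to interferon and in immune cells, served as a comparison. Against NASH livers Psmb8 rose by 0.92 ± 0.16, Psmb9 by 0.44 ± 0.12 and Psmb10 by 0.27 ± 0.11. In MupHe tumours the differences were 1.32, 0.85 and 0.60 and all passed, and in IgAkMup tumours 0.52, 0.03 and -0.06 and none passed (adjusted p = 0.0577, 0.917 and 0.765). The difference of each from the constitutive subunit it replaces was followed relative to NC livers. Psmb8 over Psmb5 stood at 1.17 ± 0.46 (SD, n = 4) in MupHe tumours, 1.40 ± 0.43 (n = 4) in IgAkMup tumours, and 0.88 ± 0.68 (n = 3) in CD8kMup tumours, against 0.27 ± 0.13 (n = 3) in MupHe and 0.65 ± 0.15 (n = 3) in IgAkMup NASH livers. Psmb9 over Psmb6 stood at 1.44 ± 0.14, 1.24 ± 0.47 and 1.17 ± 0.31 in the tumours in that order, against 0.71 ± 0.24 and 0.85 ± 0.28 in MupHe and IgAkMup NASH livers. The highest NASH liver, at 1.05, lay above the lowest tumour, at 0.81. Psmb10 over Psmb7 stood at 0.74 ± 0.32, 0.66 ± 0.12 and 0.42 ± 0.49 in tumours and at 0.09 ± 0.14 and 0.06 ± 0.04 in NASH livers. All 11 tumours were above 0, the NC mean, for each pair, the lowest at 0.02. So were all 6 NASH livers for Psmb8 over Psmb5 and Psmb9 over Psmb6. Single libraries overlapped for the other pairs too. For Psmb8 over Psmb5 the lowest tumour, at 0.09, was below the highest NASH liver (0.82) and the highest NC liver (0.56). For Psmb10 over Psmb7 the lowest tumour, at 0.02, was below the highest NASH liver (0.23) and the highest NC liver (0.32). Leukocyte markers were higher in tumours as given above.

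**Figure D5:**
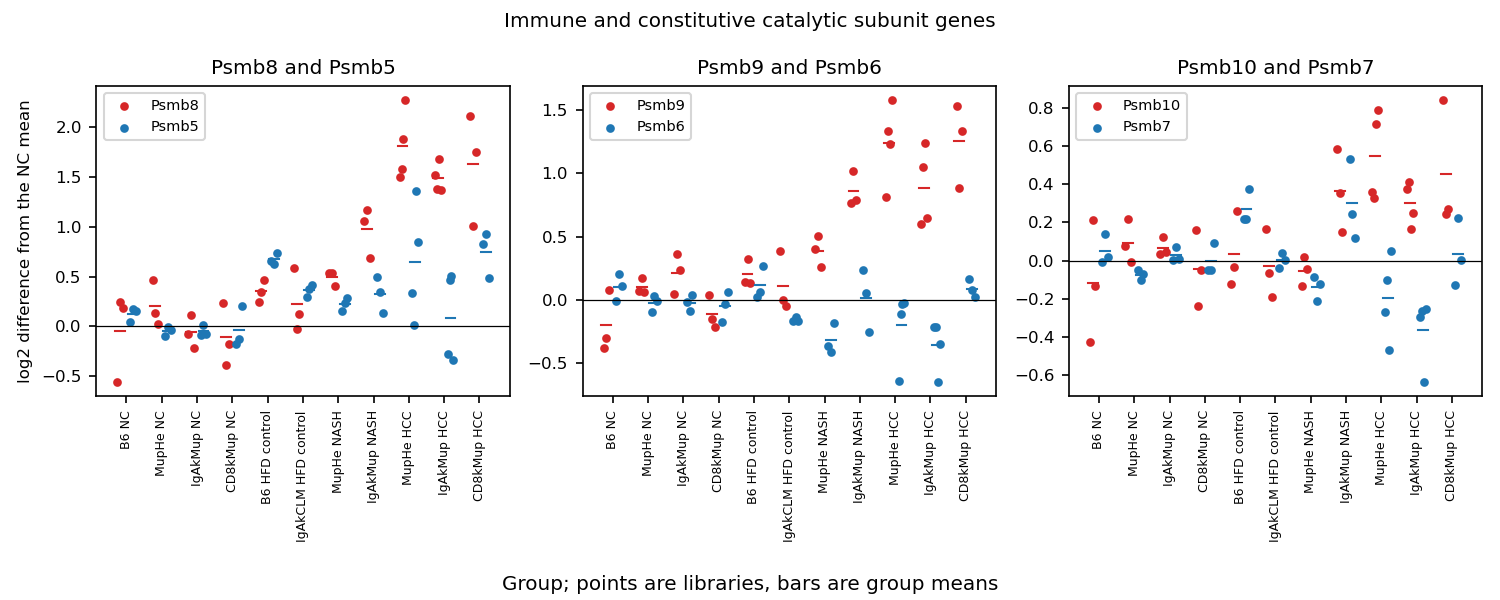
Log2 difference from the NC mean for an immunoproteasome gene (red) and the constitutive gene it replaces (blue), by group. Each gene has 1 point per library and a bar at the group mean. The panels show Psmb8 and Psmb5, Psmb9 and Psmb6, and Psmb10 and Psmb7. In the tumour groups the red bar lies above the blue bar by 0.88 to 1.40, 1.17 to 1.44 and 0.42 to 0.74, in that order.

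Other genes of the pathway were read from lists, in tumours against NASH livers over both genotypes. Among all genes 25.5% rose and 22.9% fell there, and a list whose shares lie near these values shows nothing beyond the background. Of 12 other subunits, assembly factors and associated proteins 5 fell and 2 rose. Usp14, a deubiquitinase of the cap, fell by 0.30, Adrm1, a ubiquitin receptor of the cap, by 0.22, Ube3c by 0.31, AI314180 by 0.34 and Pithd1 by 0.46. Zfand5 (0.30) and Zfand2a (0.36) rose. Pomp, the maturation factor of the core, had a difference of -0.22 ± 0.09 that did not pass (adjusted p = 0.0527).

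Of 8 genes that control subunit transcription 3 fell and 1 rose. Ddi2, the protease that activates the Nfe2l1 protein, fell by 1.17 ± 0.13 (adjusted p = 2.15e-08), with -1.10 in IgAkMup and -1.24 in MupHe. Nfyb fell by 0.81, Ngly1, which deglycosylates the Nfe2l1 protein, by 0.41, and Nfya rose by 0.45. Nfe2l1 itself (0.06 ± 0.10) and Nfe2l2 (-0.18 ± 0.11) did not pass. NRF2 is the protein of Nfe2l2, and of 9 of its target genes 7 rose and none fell, among them Slc7a11 (4.58 ± 0.41) and Nqo1 (2.38 ± 0.13). Of 14 genes of ubiquitin delivery 2 rose (Ubqln2 and Bag6) and 2 fell (Vcp and Rad23b), both shares below the background. Of 9 genes induced by interferon gamma 4 rose and 2 fell, the latter near the background share.

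Markers of other cell types moved as follows in the same comparison. All 5 dividing-cell markers rose (median 1.04), 4 of 5 leukocyte markers rose (0.83), 3 of 5 macrophage markers rose (0.48), and 3 of 6 hepatocyte markers fell (-0.49). Of 5 stellate cell markers 3 rose and 1 fell, of 5 cholangiocyte markers 2 rose, of 5 endothelial markers 2 rose and 2 fell, and of 3 T cell markers 1 rose. Of the 2 tested B and plasma cell markers neither passed. No marker in these lists was at 0 in every library, and their part in the changes of the proteasome genes was not tested.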

How the data were processed

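The authors deposited 1 table of regularized log2 values for 24511 genes in 41 columns, and 35 columns were matched to samples or groups by name. The other 6 match more than 1 group and were not used. NC libraries carry the number of their sample title, and the others the number that ends their column name. Per the labels' protocols, libraries were made with a stranded mRNA kit from 100 ng of total RNA, extracted with columns or, for some livers, with Trizol first. Per the submitters' processing notes, Cuffdiff is named for 29 samples on HFD, HOMER and DESeq2 for the 12 NC samples, and STAR with mm10, the same build as GRCm38, for all. Versions, tool roles and the program behind the values are not given there. Such values are shrunk for low counts, so that differences of weak genes can be understated. The depth behind them is unknown.

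Genes with a mean of at least 3 were kept (12337). Group means were fitted to all 35 libraries with limma 3.58.1 (R 4.3.3) with a trended variance, and two-sided p-values were adjusted over all kept genes (Benjamini-Hochberg, threshold 0.05). HCC against NASH is the mean of the MupHe and IgAkMup differences. Nothing in the labels says that replicates came from separate mice, so p-values measure only the spread between samples, which may be technical. Alternatives were other filters, median centring, quantile normalization, array weights, a fit of the compared groups alone, leaving out each library, and leaving out the tumours MupHe HCC 3, IgAkMup HCC 5 and IgAkMup HCC 9 together. The subtraction of chromosome medians, the use of MupHe in place of IgAkMup NASH livers, and the comparisons of MupHe and IgAkMup tumours with NC livers and of groups that differ in tag were added after seeing the data.

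The members and lists were chosen with earlier results of these data known. The 10 members with the largest difference between HCC and NASH were named, with the value in every HCC and NASH library and the range in NC and HFD control livers, as were members chosen by role, given by library or range. All 45 members matched the GENCODE M21 annotation. Psmb5, Psmd1 and Psmg3 share exon sequence with another gene on the same strand (Mir686, Gm21972 and Gm26938), and their values are uncertain to that extent. Figures were drawn with matplotlib 3.10.9.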

Additional observations from a re-analysis of the deposited data

Results flagged for a closer look

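In 88 groups of 4 tumours (a member in MupHe or IgAkMup HCC), 7 had a single library far from the other 3. Chance alone passes this test in about 5 of 100 groups, and 7 of 88 is near that share. The share among all genes was not computed, so the 7 are listed as a description only. MupHe HCC 4 was high for Psme1 (10.10) and Psmg2 (7.89). MupHe HCC 7 was low for Psmc4 (9.39) and high for Psmd12 (9.69), MupHe HCC 3 was low for Psmc1 (8.75), and MupHe HCC 2 was low for Psmb6 (9.52). IgAkMup HCC 8 was low for Psmb7 (9.28).

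The change from NASH to tumour differed between IgAkMup and MupHe mice for 12 members (limma interaction test, adjusted p under 0.05), and every difference was more negative in IgAkMup. In the core it was -0.52 for Psma1, -0.69 for Psma2, -0.61 for Psmb1 and -0.61 for Psmb7. In the cap it was -0.51 for Psmc4, -0.47 for Psmc5, -0.52 for Psmd11 and -0.63 for Psmd14. It was -0.72 for the activator Psme1, and for the core chaperones -0.57 (Psmg1), -0.86 (Psmg2) and -0.72 (Psmg4). The tag of the NASH libraries differs between these genotypes and was not separated from genotype.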

How the results depend on the processing

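Counts of members past the threshold were recomputed under each alternative, and those that moved by over 1.5 times follow. The shares of all genes under each alternative are not given beside them. For HCC against NASH over both genotypes, 4 members were higher and 9 lower with quantile normalization, 0 were higher with the compared groups fitted alone, 3 with 3 tumours left out and 2 with chromosome medians subtracted. For IgAkMup, 1 was higher with quantile normalization, 14 were lower with the groups alone, and with MupHe NASH in place of IgAkMup NASH 2 were higher and 6 lower. For MupHe, array weights gave 2 lower, the groups alone 1 higher and 0 lower, IgAkMup NASH in place of MupHe NASH 1 higher and 15 lower, and chromosome medians 1 lower. The difference between the genotypes gave 6 with quantile normalization and 0 with the groups alone. For CD8kMup HCC against NC, 0 were lower with quantile normalization and 4 with array weights. For MupHe HCC against NC the groups alone gave 2 higher and 1 lower. For IgAkMup HCC against NC, median centring gave 2 higher, quantile normalization 11 higher and 5 lower, and the groups alone 2 higher and 4 lower. IgAkMup against MupHe HCC gave 0 with array weights and 0 with the groups alone, and CD8kMup against MupHe HCC 1 with quantile normalization and 1 with 3 tumours left out.

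Among livers without tumours, array weights gave 4 members (NASH against HFD control), 1 (MupHe NASH against IgAkCLM HFD control), 2 (IgAkMup NASH against B6 HFD control), 20 (B6 HFD control against NC), 9 (MupHe NASH against NC), 26 (IgAkMup NASH against NC), 26 (IgAkMup against MupHe NASH), 16 (B6 against IgAkCLM HFD control), 1 (MupHe against B6 NC) and 1 (CD8kMup against MupHe NC). Groups fitted alone gave 1, for NASH against HFD control, 4 for MupHe NASH and 17 for IgAkMup NASH against NC, 11 for IgAkMup against MupHe NASH and 0 for B6 against IgAkCLM HFD control. Quantile normalization gave 7 for B6 HFD control against NC, 0 for MupHe NASH against NC, 0 for IgAkMup against MupHe NASH and 1 for B6 against IgAkCLM HFD control. Chromosome medians gave 19, 9 and 8 for B6 HFD control against NC and for these last comparisons, and IgAkCLM in place of B6 HFD control 3 against NC. The cause of these moves was not tested.

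Among members called with or without the alternative, these changed sign (over all 43, 13 did so for HCC against NASH with quantile normalization). For HCC against NASH, Psmc4 was 0.006 and Psmd2 0.15 with quantile normalization, and Psmd1 was -0.17 with chromosome medians subtracted. For IgAkMup, Psma7 (0.080), Psmb1 (0.061), Psmb4 (0.060) and Psmc4 (0.022) did so against MupHe NASH, and Psmb4 (0.018) and Psmd2 (0.15) with quantile normalization. For MupHe against IgAkMup NASH they were Psma7 (-0.33) and Psmc4 (-0.34), and for IgAkCLM in place of B6 HFD control, Psmb1 (-0.014) and Psmd8 (-0.11).

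Leaving out 1 library gave 1 to 2 higher and 14 to 19 lower for HCC against NASH, 0 to 0 and 15 to 28 for IgAkMup, 3 to 6 and 0 to 5 for MupHe, and 5 to 18 for their difference. Against NC it gave 13 to 17 higher and 0 to 2 lower for CD8kMup HCC, 5 to 13 and 3 to 7 for MupHe HCC, and 2 to 5 and 9 to 12 for IgAkMup HCC. It gave 4 to 11 for IgAkMup against MupHe HCC, 0 to 12 for CD8kMup against MupHe HCC, 4 to 10 for B6 HFD control, 0 to 1 for MupHe NASH and 3 to 11 for IgAkMup NASH against NC, 0 to 7 for IgAkMup against MupHe NASH and 0 to 2 for B6 against IgAkCLM HFD control. All other comparisons stayed at 0. Of the 18 calls in HCC against NASH, 8 held under every alternative, Psma3, Psma6, Psmb2, Psmc1, Psmd11, Psmd12, Psmd9 and Psmf1, as did 5 of 24 for IgAkMup, 0 of 9 for MupHe and 11 of 18 for CD8kMup HCC against NC. With a replicate block in the NC livers, 0 members passed in each of the 3 comparisons. Replicate numbers, taken from the sample titles, do not pair these samples, since 3 of 18 same-numbered pairs had a correlation above 0.1 (-0.21 to 0.23) and 5 of 12 libraries correlated best with their own number. The depth behind the values is unknown, and some differences larger than their standard error, such as Psmd14 (-0.14 ± 0.07), did not pass.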
